A study of Homo sapiens with 9 samples.

Results

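The genes described here are the splicing factors and heterogeneous nuclear ribonucleoprotein (hnRNP) genes of SKbr3 cells after knockdown of TRMT12. They were chosen by gene symbol: SRSF, HNRNP, SF3A, SF3B, U2AF, SNRNP and SNRP genes with their older spellings, PRPF genes followed by a digit, and SREK1, TRA2A, TRA2B, SRRM1 and SRRM2. The rule found 94 probes for 64 of the 15178 named genes on the array, and 63 of the 64 could be tested among 13202 named genes. SKbr3 is a HER2-amplified human breast cancer line, and TRMT12 (current symbol TYW2) encodes an enzyme of wybutosine synthesis in phenylalanine transfer RNA. RNA from cells given 1 of 3 TRMT12 siRNAs was compared with RNA from cells given control siRNA on 9 two-colour arrays, 3 for each siRNA. Arrays 1 and 2 of an siRNA carried the knockdown in Cy5, and array 3 had the dyes exchanged. The cells were an unmodified line, and the sources used here give neither dose nor duration of the siRNA treatment. The series text names 1 control siRNA throughout, whereas the labels number controls 1 to 3, so the comparisons may share control RNA. No label states separate cultures, so p-values for single siRNAs, siRNA differences and the dye reflect variation among hybridisations alone, possibly technical. The spread of the control RNA is left out of them. The test across siRNAs uses the spread among the 3 siRNAs, and shared control RNA would make its 3 values dependent.

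Introns are removed by the spliceosome, which is assembled on each transcript from small nuclear ribonucleoproteins (snRNPs). SR proteins mostly bind exons and recruit the machinery to nearby splice sites, while hnRNPs coat nascent transcripts and often repress splice site use. The messenger RNAs of many SR proteins and hnRNPs are themselves subject to alternative splicing linked to decay, by which the proteins limit their own amounts.

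Over all probes, array medians of the background-subtracted intensity ran from 176.5 to 420.6 for knockdown RNA and from 131 to 517.75 for control RNA. Between 2.57% and 24.3% of probes had no ratio on an array, and at most 2 of the 94 member probes. TRMT12 was lower on all 9 arrays, with mean log2 ratios of knockdown over control of -2.64 ± 0.0886, -2.53 ± 0.149 and -2.49 ± 0.129 for siRNA 1, 2 and 3 (SD, n = 3 arrays each). All 8 genes listed beforehand for a HER2-amplified luminal breast line were tested. KRT8, KRT18, KRT19, EPCAM and ERBB2 had mean log2 intensities between 15 and 15.5, and CDH1, GATA3 and GRB7 had 9.9, 10.3 and 11.8. CDH1 and GATA3 were no brighter than some of the randomised controls described below, so their expression is not shown by these values. Of 8 markers of other cell types 5 were tested, with LYZ, PDGFRB and VWF between 6.47 and 7.36, PTPRC at 9.56 and COL1A1 at 11.3. The array also carried 188 randomised control sequences, and 138 of them passed the detection rule. Their 90th percentile of log2 intensity was 11.8, and 38 of the 63 members were brighter than that, so the remaining 25 were measured at a brightness that some control sequences also reached.

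By the brightest probe of each gene, changes of the splicing genes were small and ran in both directions. Of 189 such estimates for a single siRNA, 9 lay beyond 0.5 on the log2 scale, in 7 genes. Their whole range was -0.74 to 0.65. Other probes of some genes went further, such as those of HNRNPDL (0.84) and SREK1 (0.81) with siRNA 1. With siRNA 1, limma called 11 of the 63 members higher and 11 lower at an adjusted p under 0.05, where 11.9% and 14.4% of all named genes tested were called. With siRNA 2 it called 9 higher and 15 lower against 9.59% and 12.9% of all genes, and with siRNA 3 it called 18 higher and 10 lower against 12.5% and 11.5%. The members therefore exceeded the background most clearly among the higher calls of siRNA 3, at 28.6%, and the lower calls of siRNA 2, at 23.8%. Members were bright on the whole, with a median log2 intensity of 12.2 against 9.21 for all named genes, and bright genes were called more often. Among genes brighter than 90% of the randomised controls, 39.5%, 44.7% and 47.4% of the members were called with siRNA 1, 2 and 3, next to 38%, 30.7% and 39.9% of all such genes. Among the others, 28%, 28% and 40% of the members were called, next to 23.8%, 20.7% and 20.7% of the genes. That split was added after the data were seen.

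The balance of higher and lower calls depended on the scaling. With arrays only median-centred, 0 members were called higher and 14 lower with siRNA 1, 3 and 6 with siRNA 2, and 2 and 11 with siRNA 3. With the authors' own ratios the splits were 1 and 15, 4 and 12, and 5 and 12. Calls over all tested probes fell as well, from 6478, 5723 and 5658 with siRNA 1, 2 and 3. They were 5020, 2215 and 3334 with median centring and 5956, 3745 and 4577 with the authors' ratios. Higher and lower calls over all probes were not counted apart in these settings. Scaling between arrays after loess gave 16 higher and 15 lower with siRNA 3. Median centring moved the median over all tested features only to -0.0459, and the authors' ratios moved it to -0.0233, so the median member in every family moved further than the median probe. Directions below are those after loess. Among the genes chosen by the naming rule, median centring ended the higher calls of SREK1, SRSF11, SRSF5, HNRNPA2B1, U2AF1L4, PRPF39 and PRPF38B with siRNA 1, of HNRNPH1, SNRPA1 and PRPF18 with siRNA 2, and of SREK1, SRSF11, SRRM1, HNRNPH1, HNRNPH3, HNRNPR, HNRNPU, SF3B6 and PRPF18 with siRNA 3. The authors' ratios ended the same higher calls except those of SREK1 and SRSF11 with siRNA 3 and of SNRPA1 with siRNA 2. Of the lower calls, median centring ended those of SRRM1, SRSF2, HNRNPUL2, SNRPB, SNRNP25, SF3B3, SF3B2, PRPF19 and HNRNPU with siRNA 2. It also ended the lower call of SNRNP25 with siRNA 3. The authors' ratios ended the lower calls of SRSF2, SNRNP25 and PRPF19 with siRNA 2. In both directions together, median centring ended 29 of 52 calls of named genes and the authors' ratios 19.

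**Figure D1:**
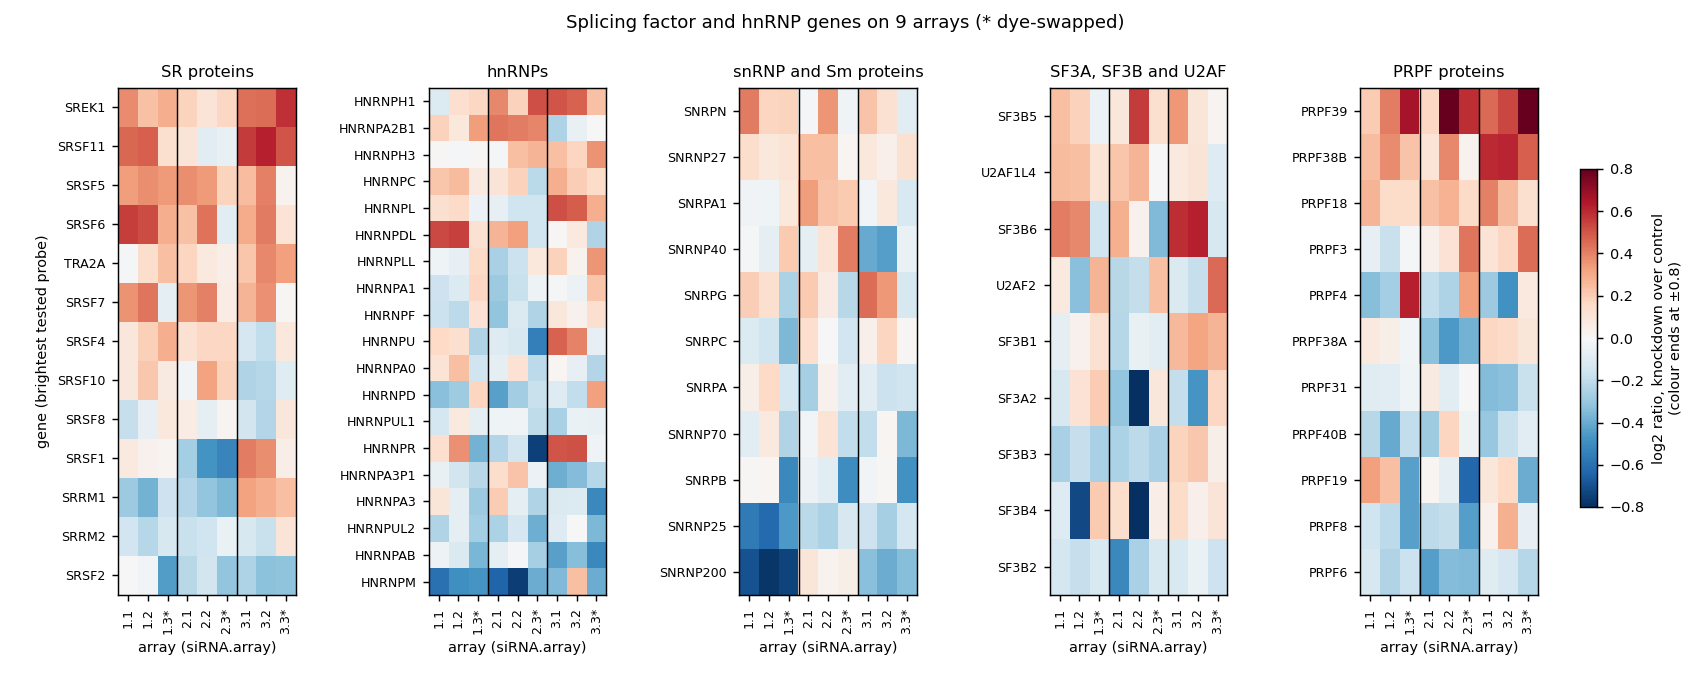
Log2 ratio of knockdown over control for the 63 tested genes (rows, brightest probe) on each of 9 arrays (columns, siRNA and array number, asterisk for a dye-swapped array), grouped by family and ordered by the mean over the siRNAs. The colour scale ends where its bar shows. Rows of 1 colour throughout, such as PRPF39 and SREK1 in red and PRPF6 and SNRNP25 in blue, are few, and many rows change colour between siRNAs or on the dye-swapped array.

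Among the 13 SR proteins and relatives tested, 6 rose and 1 fell with siRNA 1, 2 rose and 3 fell with siRNA 2, and 6 rose and 1 fell with siRNA 3. Their median over the siRNAs was 0.11, with 8 of 13 positive, against -0.01 for all named genes, and median centring made it -0.01, and the authors' ratios 0.01. SREK1, an SR-related regulator of splice site choice, had log2 ratios of 0.38, 0.23 and 0.29 on the arrays of siRNA 1, 0.18, 0.10 and 0.16 with siRNA 2, and 0.44, 0.45 and 0.58 with siRNA 3. All 9 were positive and the arrays of siRNA 3 were the highest, without overlap with the others. SREK1 rose with siRNA 1 (0.31, SE 0.0497, adjusted p = 0.00583) and siRNA 3 (0.50, adjusted p = 0.00155), while siRNA 2 missed the threshold (0.16, adjusted p = 0.0692). SRSF11, an SR-related protein that associates with U2AF, had 0.46, 0.48 and 0.13, then 0.10, -0.09 and -0.06, and 0.56, 0.62 and 0.51. It was thus near 0 with siRNA 2 and rose with siRNA 1 (0.33, SE 0.0636, adjusted p = 0.0119) and siRNA 3 (0.54, adjusted p = 0.00249). The call with siRNA 1 ended without array 1 or 2 of that siRNA (0.30 and 0.29, adjusted p = 0.0558 and 0.0659).

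SRSF5, a shuttling SR protein, had 0.33, 0.37 and 0.34 with siRNA 1, 0.37, 0.34 and 0.18 with siRNA 2, and 0.25, 0.40 and 0.03 with siRNA 3. It was positive on all 9 arrays and rose with siRNA 1 (0.32, SE 0.0584, adjusted p = 0.0091) and siRNA 2 (0.27, adjusted p = 0.0207), while siRNA 3 had 0.20 (adjusted p = 0.055). Without the dye-swapped array the first of these calls ended (0.24, adjusted p = 0.116), and the second ended without array 1 or 3 of siRNA 2 (adjusted p = 0.0723 and 0.0994). The related SRSF6 rose with siRNA 1 and 3 (0.40 and 0.22) and SRSF7, which also serves messenger RNA export, with siRNA 1 and 2 (0.18 and 0.21). Both genes had a positive dye term, described below (0.30 and 0.37, adjusted p = 0.0214 and 0.00638). The SRSF7 mean was 0.36 on the Cy5 arrays and -0.0042 on the dye-swapped ones, and that of SRSF6 0.41 and 0.10. With median centring no member was called higher with siRNA 1. A second SRSF7 probe, at a log2 intensity of 9.93 against 10.6, gave 0.05 with siRNA 1, was called lower with siRNA 2 (-0.23, adjusted p = 0.0476) and higher with siRNA 3 (0.25, adjusted p = 0.0359). With median centring the calls of SREK1, SRSF11 and SRSF5 with siRNA 1 ended, at 0.13, 0.14 and 0.13, and so did those of SREK1 and SRSF11 with siRNA 3, at 0.35 and 0.40 (adjusted p = 0.0595 and 0.059).

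SRSF2, a nuclear SR protein that binds exonic enhancers, was the SR gene with the lowest mean. Its log2 ratios were -0.01, -0.02 and -0.45 with siRNA 1, -0.22, -0.15 and -0.31 with siRNA 2, and -0.25, -0.33 and -0.32 with siRNA 3. All 9 lay below 0, and it fell with siRNA 2 (-0.26, SE 0.0683, adjusted p = 0.0388) and siRNA 3 (-0.33, adjusted p = 0.0159). The call with siRNA 2 held in 9 of 20 alternative settings, and the call with siRNA 3 ended without array 1 or 2 of siRNA 3 (adjusted p = 0.0795 and 0.0847). A dimmer SRSF2 probe (log2 intensity 8.92) gave -0.13, 0.01 and -0.36 and was called with siRNA 3 only (adjusted p = 0.0146). It was above 0 on 2 of 9 arrays. SRSF8, a near copy of SRSF2 whose signal may not be separable from it, had estimates of -0.03, 0.03 and -0.07. SRRM2, a scaffold of nuclear speckles, had -0.15, -0.11 and -0.04 and passed with none of the siRNAs (adjusted p between 0.07 and 0.638). SRSF12 passed detection but lacked a dye-balanced ratio for at least 1 siRNA and was not tested.

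Of the 19 hnRNPs, 2 rose and 3 fell with siRNA 1, 2 rose and 4 fell with siRNA 2, and 6 rose and 3 fell with siRNA 3. Their median over the siRNAs was -0.07 (7 of 19 positive), and -0.17 and -0.14 with median centring and the authors' ratios. HNRNPM, which regulates alternative exons such as those of CD44, had -0.60, -0.49 and -0.47 with siRNA 1, -0.64, -0.75 and -0.40 with siRNA 2, and -0.35, 0.24 and -0.40 with siRNA 3. Array 2 of siRNA 3 was the only one above 0. HNRNPM fell with siRNA 1 (-0.52, SE 0.135, adjusted p = 0.0338) and siRNA 2 (-0.59, adjusted p = 0.0246), and siRNA 3 had -0.17 (adjusted p = 0.474). Leaving out any array of siRNA 1, or array 1 of siRNA 2, ended the first call (adjusted p between 0.0501 and 0.173), and leaving out array 1 or 2 of siRNA 2 ended the second (adjusted p = 0.0818 and 0.0704).

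HNRNPAB, a binder of single-stranded nucleic acid and messenger RNA transport elements, had -0.04, -0.12 and -0.36, then -0.08, -0.01 and -0.27, and -0.43, -0.34 and -0.51. No array was above 0, and the arrays of siRNA 3 were mostly the lowest. It fell with siRNA 3 (-0.46, SE 0.0481, adjusted p = 0.00172), a call that held in all 20 alternative settings, and with siRNA 1 (-0.21, adjusted p = 0.0223), which ended without array 2 or 3 of siRNA 1 (adjusted p = 0.0951 and 0.211). HNRNPUL2, an HNRNPU relative, fell with siRNA 1 and 2 (-0.23 and -0.30, SE 0.0581, adjusted p = 0.03 and 0.015). Its arrays were negative in 8 of 9 cases, the exception being 0.01 on array 2 of siRNA 3. On the Cy5 arrays alone neither call passed (-0.16 and -0.19), and leaving out any array of siRNA 1 ended the first.

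HNRNPA2B1, which binds and sorts many messenger RNAs, had 0.18, 0.08 and 0.34 with siRNA 1, 0.43, 0.41 and 0.39 with siRNA 2, and -0.25, -0.06 and 0.00 with siRNA 3. The 3 siRNAs did not overlap. It rose with siRNA 2 (0.43, SE 0.0597, adjusted p = 0.00427), in all 20 alternative settings too, and with siRNA 1 (0.22, adjusted p = 0.0403), a call lost in 9 of them. HNRNPH1, a binder of runs of guanosine, had -0.11, 0.13 and 0.16, then 0.38, 0.19 and 0.51, and 0.50, 0.47 and 0.23, and rose with siRNA 2 (0.37, SE 0.0916, adjusted p = 0.0333) and siRNA 3 (0.41, adjusted p = 0.0219). Both of its calls ended with median centring (0.34 and 0.26), the call with siRNA 2 also without array 1 or 3 of siRNA 2, and the call with siRNA 3 without array 1 or 2 of siRNA 3 (adjusted p = 0.114 and 0.106). Its relative HNRNPH3 was measured by probes of almost equal log2 intensity (12.83 and 12.82) that gave opposite patterns. The brighter had 0.02, 0.18 and 0.28 and was called with siRNA 3 (adjusted p = 0.0196), a call that ended with median centring (0.14) and without any array of siRNA 3. The other was called higher with siRNA 1 and 2 (0.36 and 0.36, adjusted p = 0.00241 and 0.00284), had -0.08 with siRNA 3, and passed the F test between siRNAs (adjusted p = 0.0122), which the brighter did not (adjusted p = 0.164). By their brightest probe, HNRNPA1, HNRNPC, HNRNPF, HNRNPA0, HNRNPUL1 and HNRNPD were called with none of the siRNAs. Dimmer probes were called higher for HNRNPA1 with siRNA 1 (0.23, adjusted p = 0.0416) and lower for HNRNPUL1 with siRNA 2 and 3 (-0.38 and -0.37, adjusted p = 0.00573 for both), and the second HNRNPD probe is described below with the other probe pairs. HNRNPA1, HNRNPA3 and the pseudogene symbol HNRNPA3P1 have near-identical copies in the genome, and their signals may mix those copies.

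In the snRNP and Sm family of 11 genes, 0 rose and 4 fell with siRNA 1, 2 rose and 2 fell with siRNA 2, and 0 rose and 5 fell with siRNA 3. The median was -0.08 (5 of 11 positive), and -0.19 and -0.16 with median centring and the authors' ratios. SNRNP200, the helicase that unwinds the U4/U6 duplex during activation of the spliceosome, gave the lowest single estimate among the brightest probes. Its log2 ratios were -0.70, -0.78 and -0.74 with siRNA 1, 0.10, 0.03 and 0.05 with siRNA 2, and -0.34, -0.39 and -0.34 with siRNA 3. The 3 siRNAs stood apart without overlap, and the dye-swapped array lay close to the others within each. SNRNP200 fell to 60% of control with siRNA 1 (-0.74, SE 0.042, adjusted p = 0.000235) and to 78.1% with siRNA 3 (-0.36, adjusted p = 0.00243), with siRNA 2 at 0.06 (adjusted p = 0.358). A second probe for it, at a log2 intensity of 6.98 against 11.8, gave 0.35, 0.15 and 0.24 with adjusted p between 0.186 and 0.535, and averaging the probes ended both calls (-0.20 and -0.06).

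SNRNP25, a protein of the minor spliceosome, had -0.56, -0.62 and -0.46 with siRNA 1, -0.21, -0.26 and -0.13 with siRNA 2, and -0.16, -0.27 and -0.14 with siRNA 3. All 9 arrays were negative, and those of siRNA 1 lay below the rest. It fell with siRNA 1 (-0.53, SE 0.0425, adjusted p = 0.000528), in all 20 alternative settings too, and with siRNA 2 and 3 (-0.18 and -0.17, adjusted p = 0.0269 and 0.0309), where leaving out any array of the same siRNA ended the call (adjusted p between 0.0646 and 0.201 for siRNA 3). SNRPB, a core Sm protein, fell with all 3 siRNAs (-0.24, -0.29 and -0.25, SE 0.04, adjusted p = 0.00635, 0.00403 and 0.007). These values came from the dye-swapped arrays, which had -0.51, -0.50 and -0.49, while the other 6 lay between -0.09 and 0.02. On the Cy5 arrays alone the estimates were 0.01, -0.07 and -0.01, so the sign with siRNA 1 turned, and none passed. The calls with siRNA 1 and 3 also ended when the dye-swapped array of the same siRNA was left out (adjusted p = 0.0876 and 0.0685). The U1 snRNP genes SNRPA, SNRPC and SNRNP70 had means over the siRNAs of -0.09, -0.08 and -0.14, with SNRPC called lower with siRNA 1 and SNRNP70 with siRNA 3. SNRPN, an imprinted Sm paralogue, had 0.22, 0.07 and 0.05, SNRNP27 of the tri-snRNP had 0.10, 0.16 and 0.07, and neither passed with any siRNA. SNRPA1, a U2 snRNP protein, rose with siRNA 2 (0.25, SE 0.0571, adjusted p = 0.0247), a call that ended without array 1 or 3 of siRNA 2 (adjusted p = 0.0886 and 0.0967).

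The 9 tested genes of SF3A, SF3B and U2AF, which recognise the branch site and the 3′ splice site, gave few calls. With siRNA 1, 1 rose and 1 fell, with siRNA 2, 0 rose and 2 fell, and with siRNA 3, 2 rose and 0 fell. The family median was 0.07, but median centring made it -0.03 and the authors' ratios -0.01. SF3B3, a scaffold subunit of SF3B, had -0.26, -0.19 and -0.26 with siRNA 1, -0.25, -0.21 and -0.26 with siRNA 2, and 0.18, 0.21 and 0.04 with siRNA 3. All 6 arrays of the first 2 siRNAs were negative and all 3 of siRNA 3 positive. SF3B3 fell with siRNA 1 (-0.25, SE 0.0436, adjusted p = 0.0082) and siRNA 2 (-0.25, adjusted p = 0.00928), and siRNA 3 had 0.13 (adjusted p = 0.0766). The call with siRNA 1 ended without its dye-swapped array (adjusted p = 0.0674). Its second probe gave -0.23, -0.29 and 0.09. SF3B2, another subunit, was negative on all 9 arrays, between -0.52 and -0.05, and passed with siRNA 2 (-0.29, SE 0.0722, adjusted p = 0.033), with a value of -0.20 and no call without array 1 of siRNA 2. SF3B5 was positive on 8 of 9 arrays with estimates of 0.09, 0.22 and 0.12, none past the threshold. U2AF1L4, a paralogue of the small U2AF subunit, rose with siRNA 1 (0.17, adjusted p = 0.0254), which median centring reduced to 0.01 and the omission of any array of siRNA 1 ended. SF3B4, a subunit that contacts the transcript upstream of the branch site, had a mean of -0.16 that rested on a ratio of -2.16 on array 2 of siRNA 2, at a dim probe (log2 intensity 8), and became 0.03 without that array.

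Among the 11 PRPF genes, 2 rose and 2 fell with siRNA 1, 3 rose and 4 fell with siRNA 2, and 4 rose and 1 fell with siRNA 3. The median was -0.08 (5 of 11 positive), and -0.20 and -0.17 with median centring and the authors' ratios. PRPF39, the counterpart of a yeast U1 snRNP protein that acts in 5′ splice site recognition, had 0.20, 0.41 and 0.66 with siRNA 1, 0.16, 0.80 and 0.59 with siRNA 2, and 0.45, 0.54 and 0.83 with siRNA 3. It was positive on all 9 arrays and the siRNAs overlapped. PRPF39 rose with siRNA 1 (0.47, SE 0.119, adjusted p = 0.0321), siRNA 2 (0.56, adjusted p = 0.0196) and siRNA 3 (0.65, adjusted p = 0.0108). The call with siRNA 1 held in 10 of 20 alternative settings, and leaving out any array of siRNA 1 ended it (0.42 to 0.53). Those with siRNA 2 and 3 each held in 17, ending without array 3 of siRNA 2 (0.65, adjusted p = 0.064) and without array 2 or 3 of siRNA 3 (0.64 and 0.61). The call with siRNA 2 also ended without the dye term (0.52, adjusted p = 0.0563). On the Cy5 arrays alone PRPF39 passed with no siRNA (0.31, 0.48 and 0.49, adjusted p = 0.243, 0.0933 and 0.108). Its probe had a log2 intensity of 9.54.

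PRPF38B, a relative of the tri-snRNP protein PRPF38A, had 0.25, 0.38 and 0.23, then 0.11, 0.38 and 0.03, and 0.60, 0.61 and 0.48. All arrays were positive and those of siRNA 3 were highest. It rose with siRNA 3 (0.54, SE 0.0638, adjusted p = 0.00249), in all 20 alternative settings too, and with siRNA 1 (0.26, adjusted p = 0.0277), lost in 8 of them. PRPF18, a factor of the second catalytic step, was positive on all 9 arrays, between 0.13 and 0.40, and rose with siRNA 2 and 3 (0.20 and 0.24, SE 0.0522, adjusted p = 0.0377 and 0.0193). Both of these calls ended with median centring (0.18 and 0.09), and without any array of the same siRNA. PRPF6, a bridging protein of the tri-snRNP, was negative on all 9 arrays, with -0.13, -0.24 and -0.17, then -0.44, -0.35 and -0.35, and -0.10, -0.13 and -0.23. It fell with siRNA 2 (-0.39, SE 0.0492, adjusted p = 0.0031), in all 20 alternative settings too, and with siRNA 1 (-0.18, adjusted p = 0.0375), which 10 of them ended. PRPF8, the protein at the catalytic core of the spliceosome, fell with siRNA 1 and 2 (-0.31 and -0.32, SE 0.0549, adjusted p = 0.0084 and 0.0092) and had 0.04 with siRNA 3. Both calls ended without the dye-swapped array of the same siRNA (adjusted p = 0.0908 and 0.0635). A dimmer PRPF8 probe was positive on all 9 arrays, with estimates of 0.12, 0.08 and 0.08.

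The test across siRNAs asks which genes moved whichever siRNA was used, with a single dye-balanced value for each siRNA. Limma called 0 of the 63 members at an adjusted p under 0.05, and 0.00757% of all named genes, which is TRMT12 alone. At an unadjusted p under 0.05, 8 members were higher and 8 lower, against 11.3% and 12.9% of all genes, so the members' 12.7% in each direction was near the background. Those higher were PRPF39, PRPF38B, PRPF18, SREK1, SRSF5, SRSF6, SRSF7 and HNRNPH1, and those lower SRSF2, HNRNPUL2, HNRNPAB, HNRNPM, SNRPB, SNRNP25, SF3B2 and PRPF6. The smallest p was that of PRPF39, with a mean of 0.56 or 1.47-fold (SE 0.0716, unadjusted p = 0.000527, adjusted p = 0.0814). HNRNPM followed with -0.43 (SE 0.0895, adjusted p = 0.0944). Over the alternatives the adjusted p of PRPF39 ranged from 0.0208 to 0.239 and that of HNRNPM from 0.0361 to 0.243. Both passed when probes needed signal in both channels on all arrays. In that setting 2 of 62 members passed, and so did 1592 of all 21319 tested probes, against 1 probe in the main setting. Members above 0 on all 9 arrays numbered 6 (SREK1, SRSF5, SNRNP27, PRPF39, PRPF38B and PRPF18), where 6.14% of all genes were. Below 0 on all 9 were 5 (SRSF2, HNRNPAB, SNRNP25, SF3B2 and PRPF6), where 8.32% were.

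Differences between the siRNAs were more frequent among the splicing genes. The F test of the 3 siRNA means called 17 of 63 members (27%), against 15% of all named genes. In the brightness classes above, it called 28.9% of the bright members next to 22.4% of all bright genes, and 24% of the other members next to 13.5% of the other genes. The 17 were 4 SR genes, 6 hnRNPs, 3 snRNP genes, 2 SF3B genes and 2 PRPF genes, and 11 of them had their highest estimate with siRNA 3 and their lowest with siRNA 2. How many of all named genes called had this order was not counted. For SRRM1, SF3B3 and PRPF8 siRNA 1 and 2 were hardly apart. Their differences of siRNA 2 minus siRNA 1 were -0.02, -0.01 and -0.01 (limma, adjusted p = 0.888, 0.954 and 0.941). Between siRNA 3 and siRNA 2, 14 members were called higher with siRNA 3 and 6 lower, against 7.7% and 3.68% of all genes. Between siRNA 3 and siRNA 1, 8 were higher with siRNA 3 and 2 lower, against 6.15% and 4.61%. Between siRNA 2 and siRNA 1, 2 were higher with siRNA 2 and 3 lower, against 1.3% and 2.16%. With median centring the F test called 0 members, as it did on the Cy5 arrays alone, with the authors' ratios 3, and leaving out 1 array gave between 4 and 16. F test calls over all probes were not counted in these settings.

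SNRNP200 had the smallest F test p (adjusted p = 0.00429). The difference of siRNA 2 minus siRNA 1 was 0.80 (SE 0.0582, adjusted p = 0.00392), that of siRNA 3 minus siRNA 1 was 0.38 (adjusted p = 0.014) and that of siRNA 3 minus siRNA 2 was -0.41 (adjusted p = 0.0108). HNRNPR, an RNA-binding protein related to SYNCRIP, had 0.13, 0.37 and -0.38 with siRNA 1, -0.23, -0.15 and -0.75 with siRNA 2, and 0.50, 0.51 and -0.03 with siRNA 3. Within each siRNA the dye-swapped array was the lowest, and within each orientation siRNA 2 was lowest and siRNA 3 highest. HNRNPR fell with siRNA 2 (-0.47, SE 0.0563, adjusted p = 0.00247) and rose with siRNA 3 (0.23, adjusted p = 0.0289), and siRNA 3 minus siRNA 2 was 0.70 (SE 0.0781, adjusted p = 0.00682). HNRNPU, which binds nascent RNA and chromatin as scaffold attachment factor A, had 0.16, 0.13 and -0.24, then -0.10, -0.13 and -0.55, and 0.47, 0.40 and -0.07. The order was that of HNRNPR in both orientations, and siRNA 3 minus siRNA 2 was 0.53 (SE 0.0586, adjusted p = 0.00682). A second HNRNPR probe did not share the pattern: it gave 0.55, 0.19 and -0.10, with siRNA 1 highest and siRNA 3 lowest, and its siRNA 3 minus siRNA 2 was -0.29 (adjusted p = 0.0301). With median centring HNRNPR and HNRNPU had 0.10 and 0.06 with siRNA 3, and these calls also ended without any array of siRNA 3. On the Cy5 arrays alone the values with siRNA 2 were -0.19 and -0.12, and neither passed.

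**Figure D2:**
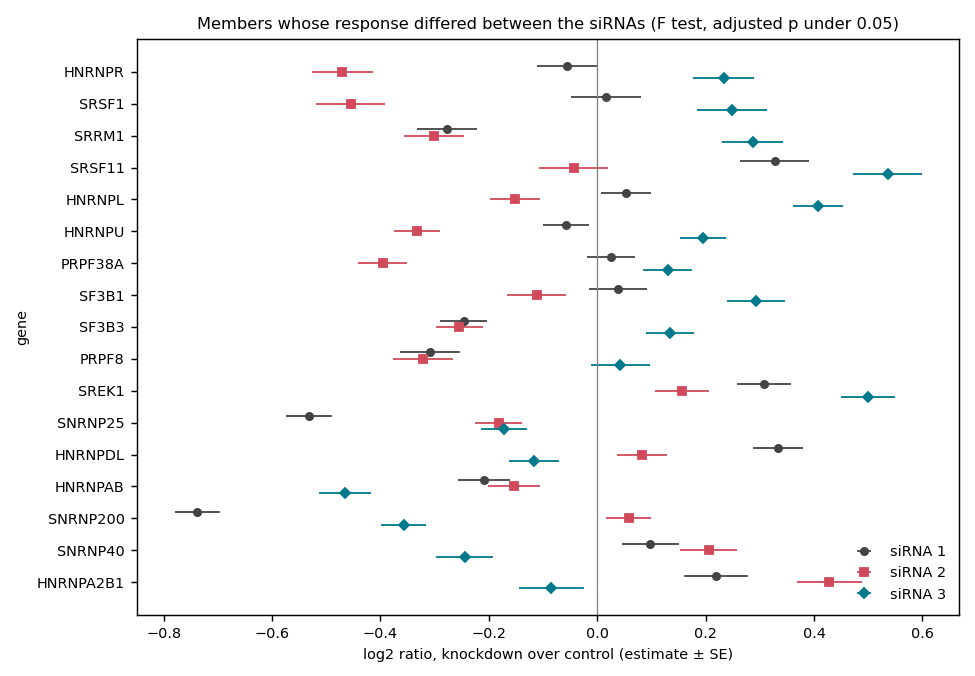
Estimates of the log2 ratio with their standard errors (horizontal axis) for the 17 members called by the F test (rows), a marker for each siRNA, ordered by siRNA 3 minus siRNA 2. The upper 11 rows have siRNA 3 rightmost and siRNA 2 leftmost, and SNRNP200 is far left with siRNA 1 and near 0 with siRNA 2.

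SRRM1, a coactivator that bridges SR proteins and the core machinery, had -0.29, -0.38 and -0.16 with siRNA 1, -0.23, -0.31 and -0.36 with siRNA 2, and 0.32, 0.29 and 0.24 with siRNA 3. Negative with the first 2 siRNAs on every array and positive with siRNA 3 on every array, it passed in each direction (-0.28, -0.30 and 0.29, SE 0.0558, adjusted p = 0.0136, 0.0122 and 0.0134). The call with siRNA 1 ended without array 1 or 2, that with siRNA 2 without array 3, and that with siRNA 3 without any array of the same siRNA (adjusted p between 0.056 and 0.101). SRSF1, the founding SR protein, was chosen for mention after its values were seen, as were HNRNPL, SF3B1, PRPF38A, SNRNP40 and HNRNPDL. SRSF1 had 0.08, 0.03 and 0.02, then -0.27, -0.48 and -0.53, and 0.41, 0.37 and 0.05, so that siRNA 2 lay below the other siRNAs, and siRNA 3 minus siRNA 2 was 0.70 (SE 0.0891, adjusted p = 0.00859). For HNRNPL, a binder of CA repeats, the same difference was 0.56 (adjusted p = 0.00714), for PRPF38A 0.53 (adjusted p = 0.00773), and for SF3B1, the branch site subunit mutated in several cancers, 0.40 (adjusted p = 0.0216). PRPF8, SF3B3 and SREK1 had 0.36, 0.39 and 0.34, and SRSF11 had 0.58. The other SREK1 probes gave the opposite sign, -1.02 and -1.30 (adjusted p = 0.0109 and 0.00234). The opposite order was found for HNRNPA2B1 (-0.51, adjusted p = 0.015), SNRNP40 of the U5 snRNP (-0.45, adjusted p = 0.015) and HNRNPAB (-0.31, adjusted p = 0.0336). HNRNPDL, a relative of HNRNPD, decreased from 0.33 with siRNA 1 to 0.08 and -0.12, and a second probe for it gave 0.84, 0.35 and 0.15 in the same order.

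By their brightest probe after loess, the 3 members with the smallest F test p differed most clearly between the siRNAs. Second probes of SNRNP200 and HNRNPR did not share the pattern. With median centring, or on the Cy5 arrays alone, the F test called 0 members. The sequences before the transcription start of these 3 members are shown. They are the 250 bases upstream of the start in the RefSeq annotation of GRCh38.p14, all 3 on the minus strand and written 5′ to 3′ in the direction of transcription, and capitals mark the motif letters searched, on either strand. SNRNP200 lies at chr2:96305547-96305796, HNRNPR at chr1:23344285-23344534 and HNRNPU at chr1:244864544-244864793.
SNRNP200: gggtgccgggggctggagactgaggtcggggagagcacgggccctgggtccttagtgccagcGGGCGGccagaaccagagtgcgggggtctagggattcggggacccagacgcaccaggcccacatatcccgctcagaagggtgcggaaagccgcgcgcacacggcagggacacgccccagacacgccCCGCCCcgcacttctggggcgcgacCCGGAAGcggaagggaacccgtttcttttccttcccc
HNRNPR: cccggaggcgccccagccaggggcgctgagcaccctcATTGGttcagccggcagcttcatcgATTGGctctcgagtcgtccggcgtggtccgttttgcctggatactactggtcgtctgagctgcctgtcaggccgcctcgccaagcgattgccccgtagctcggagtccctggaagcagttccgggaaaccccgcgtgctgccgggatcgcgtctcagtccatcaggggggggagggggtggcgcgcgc
HNRNPU: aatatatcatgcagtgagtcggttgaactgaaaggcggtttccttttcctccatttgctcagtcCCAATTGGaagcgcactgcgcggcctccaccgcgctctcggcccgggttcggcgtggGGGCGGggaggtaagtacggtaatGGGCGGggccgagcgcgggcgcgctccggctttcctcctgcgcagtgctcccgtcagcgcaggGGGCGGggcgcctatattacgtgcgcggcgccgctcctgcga
The SNRNP200 stretch holds the ETS letters CCGGAAG and the GC-box letters GGGCGG, HNRNPR holds CCAAT, and HNRNPU holds CCAAT and GGGCGG. The HNRNPU match CCAAT overlaps its own reverse complement. Over the members, 56 of the 63 genes had such a stretch, and 33.9% of them held CCGGAAG, against 13.6% of 10474 tested genes and 8.82% of all 27305 promoters. CCAAT was found in 46.4% of the members, 34.7% of tested genes and 33% of all promoters, and GGGCGG in 60.7%, 61.4% and 42.3%. The NRF1 letters GCATGCGC occurred in 5.36%, 4.19% and 2.81%, the CRE letters TGACGTCA in 1.79%, 2.68% and 1.77%, and the TATA letters TATAAA in 8.93%, 7.17% and 11.1%. No other letters were searched, and these shares are descriptions without a test.

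The dye term, positive where the ratio was higher with the knockdown in Cy5, was called positive for 15 members and negative for 7, against 13.8% and 15% of all named genes. Members and genes of like brightness had similar shares, 39.5% and 42% among the bright and 28% and 26.1% among the others. By family, positive and negative calls were 2 and 0 among SR genes, 6 and 3 among hnRNPs, 3 and 1 among snRNP genes, 2 and 1 in the SF3 and U2AF group, and 2 and 2 among PRPF genes. The mean on the Cy5 arrays and the mean on the dye-swapped arrays had opposite signs for 20 of the 63 genes. The same count was not made over all named genes, so whether members differ from them in this is not known. Across the 63 genes the dye term correlated with log2 intensity (Pearson's r = 0.54, Spearman's rho = 0.53), while over all named genes r was -0.01. These points share the same 9 arrays, and the correlation is across genes, which are not independent. The largest dye terms were those of PRPF4, PRPF19 and SF3B6.

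PRPF4, a tri-snRNP protein, was negative on all 6 Cy5 arrays, between -0.49 and -0.19, and had 0.62, 0.33 and 0.08 on the dye-swapped ones (dye term -0.65, SE 0.0982, adjusted p = 0.00582). The orientations did not overlap, and the estimates of 0.11, 0.07 and -0.13 for the siRNAs passed no test. PRPF19, a ubiquitin ligase needed to activate the spliceosome, had 0.33, 0.24 and -0.44 with siRNA 1, 0.01, -0.07 and -0.63 with siRNA 2, and 0.09, 0.16 and -0.39 with siRNA 3, with a dye term of 0.61 (SE 0.0607, adjusted p = 0.00191). Its fall with siRNA 2 (-0.33, adjusted p = 0.00611) became -0.03 on the Cy5 arrays alone. SF3B6, which touches the branch site adenosine, had a mean of 0.39 on the Cy5 arrays and -0.21 on the others (dye term 0.60, SE 0.0754, adjusted p = 0.00329), and its rise with siRNA 3 (0.26, adjusted p = 0.0282) ended in 9 of 20 alternative settings. In contrast, SNRNP200, SRRM1 and SREK1 had dye terms of -0.00, -0.01 and -0.05, none past the threshold.

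**Figure D3:**
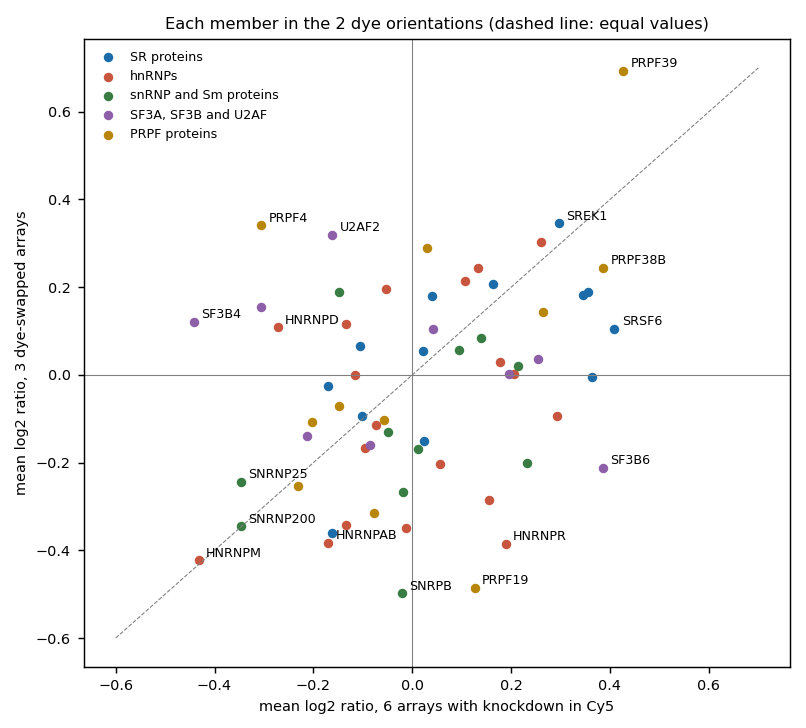
Mean log2 ratio of each member on the 6 Cy5 arrays (knockdown in Cy5, horizontal axis) and on the 3 dye-swapped arrays (vertical axis), coloured by family, with a dashed line at equal values. SREK1, SNRNP25, SNRNP200 and HNRNPM lie near the line, while PRPF19, SNRPB, SF3B6 and HNRNPR lie below it and PRPF4 and U2AF2 above it.

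Probes for a single gene often differed. Several tested probes existed for 25 members, and in 11 of them the means over the siRNAs had opposite signs, with a median spread of 0.138. SREK1 had 3 probes, and the other 2 gave 0.64, 0.70 and -0.32 and 0.81, 0.76 and -0.53 for siRNA 1, 2 and 3, so they exceeded the brightest probe with siRNA 1 and 2 and went against it with siRNA 3 (0.50). On the arrays of siRNA 3 the third probe had -0.56, -0.50 and -0.48 where the brightest had 0.44, 0.45 and 0.58. The mean over the SREK1 probes with siRNA 3 was -0.12. The second SRRM1 probe was positive on all 9 arrays, between 0.18 and 0.62, with 0.32, 0.55 and 0.40 (adjusted p = 0.012, 0.00206 and 0.00603), and averaging the probes gave SRRM1 0.02 with siRNA 1 and 0.12 with siRNA 2. The means of the SNRNP200 probes differed by 0.59 and those of the SRRM1 probes by 0.52, and no other member exceeded 0.5.

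For HNRNPD, which binds AU-rich elements and promotes messenger RNA decay, both probes were among the brightest of the members (log2 intensity 15.3 and 14.5). The brightest was called with no siRNA (-0.08, -0.23 and 0.07), and the other was called lower with all 3 (-0.22, -0.51 and -0.54, SE 0.048, adjusted p = 0.0173, 0.00106 and 0.00126). HNRNPLL, SRSF10, SF3B1 and HNRNPA3 likewise had another probe with calls that the brightest lacked or opposed, among them SF3B1 at -0.52 with siRNA 3 (adjusted p = 0.00457) where its brightest probe had 0.29. PRPF6, HNRNPAB and SF3B3 had probes with the same sign for every siRNA. Which transcripts each probe detects was not analysed here.

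**Figure D4:**
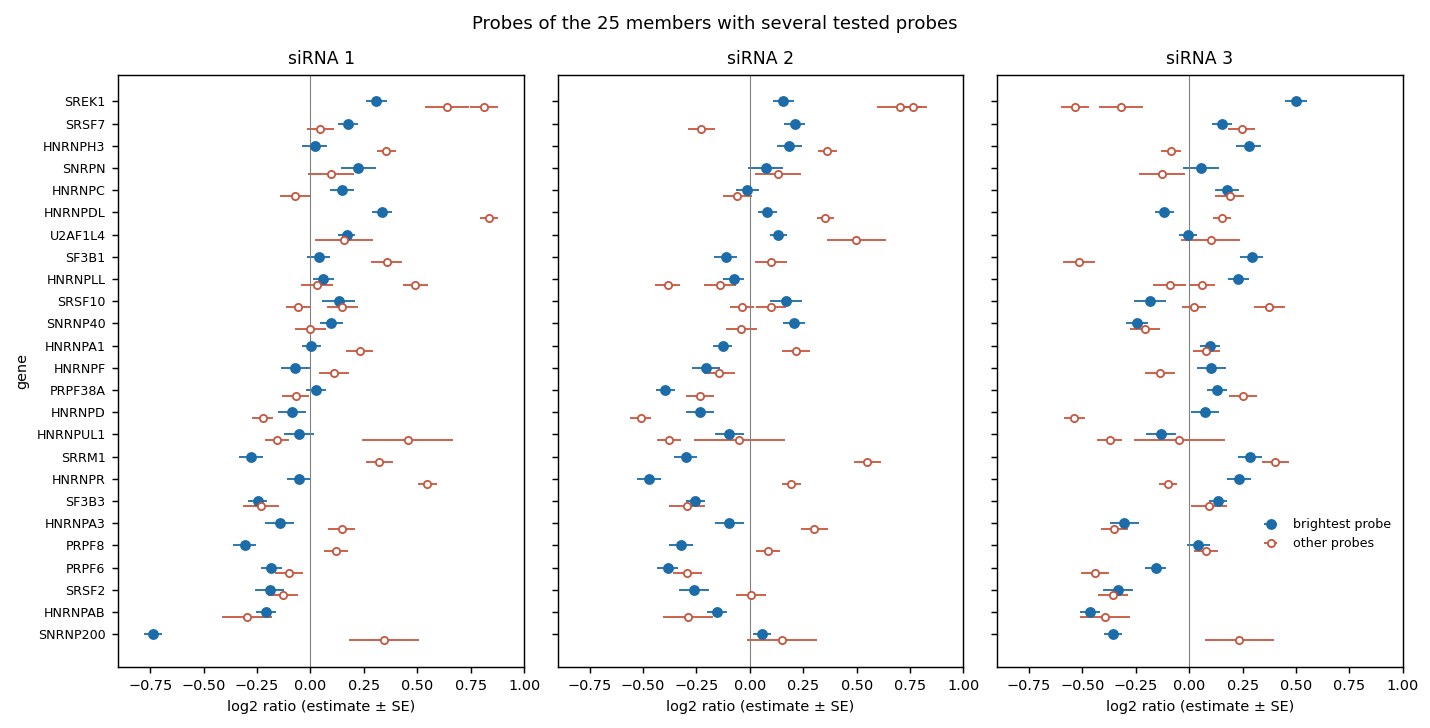
Estimates of the log2 ratio with standard errors (horizontal axes, a panel for each siRNA) for the 25 members with several tested probes (rows), filled for the brightest probe and open for the others. The open markers of SREK1 move from far right with siRNA 1 and 2 to the left with siRNA 3, and PRPF6, HNRNPAB and SF3B3 have filled and open markers on the same side.

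Other genes of the splicing machinery gave a like mixture. The genes of this and the next paragraph were not followed through the alternative settings. How far their calls depend on the scaling or on single arrays was therefore not tested. Of 56 further spliceosome genes 47 were tested, and 10 rose and 10 fell with siRNA 1, 9 rose and 6 fell with siRNA 2, and 13 rose and 6 fell with siRNA 3, with a median over the siRNAs of 0.01. Among them CWC22, which loads the exon junction complex, rose with each siRNA (0.94, 0.53 and 0.61) at a log2 intensity of 8.36, and CHERP, a U2-associated protein, fell with each (-0.31, -0.64 and -0.20). The kinases of SR proteins and their import receptor, 7 genes, had a median of 0.15 with 6 of 7 positive. CLK1 rose with all 3 siRNAs (0.74, 0.45 and 0.69, adjusted p = 0.00105, 0.00803 and 0.00192) and CLK4 with siRNA 1 and 3 (0.50 and 0.56), while the import receptor TNPO3 had -0.17, -0.16 and 0.04. SRPK1 and SRPK2 rose with siRNA 3 (0.28 and 0.34).

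Of 34 other splicing regulators 28 were tested, and 8 rose and 4 fell with siRNA 1, 6 and 8 with siRNA 2, and 9 and 6 with siRNA 3. PTBP2, the neuronal polypyrimidine tract binding protein, rose with each siRNA (0.72, 0.48 and 0.56), and RBM39, a coactivator related to U2AF, did too (0.49, 0.30 and 0.57). PTBP1 fell with siRNA 3 (-0.39, adjusted p = 0.0183) and ESRP2, an epithelial splicing regulator, with siRNA 1 and 2 (-0.47 and -0.41), while ESRP1 rose with siRNA 1 and 3 (0.27 and 0.53). All 5 tested exon junction complex genes had negative means, with a median of -0.12, and 0, 0 and 1 rose and 1, 1 and 1 fell with siRNA 1, 2 and 3. The SMN complex, which assembles Sm cores, had a median of 0.02 over 9 genes.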

How the data were processed

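The files held, for each spot, the intensity of both channels after local background subtraction, as the authors deposited it. Per the file headers they also held a calibrated ratio, a spot quality given as a fraction from 0 to 1 and the spot area. A further table held log2 ratios, as deposited by the authors, which matched the calibrated ratio within 0.001 on the 6 Cy5 arrays and its negative on the 3 dye-swapped arrays. Direction was taken as knockdown over control, since the series text says the dye-swapped columns were already exchanged. Its column medians, in array order, were -0.0578, -0.103 and -0.154 (siRNA 1), -0.258, -0.207 and -0.0438 (siRNA 2), then -0.103, 0.0421 and -0.0467 (siRNA 3). The image program was not given in the sources used here.

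Within-array loess of the log2 ratios used limma 3.58.1 (R 4.3.3), and 188 randomised control sequences had weight 0. Probes needed, on 6 or more arrays, a signal in either channel over 2 standard deviations of the background, and a ratio in each orientation for every siRNA, which left 28139 of 35328. Limma fitted a mean for each siRNA and a dye term over 9 arrays, tested 1 dye-balanced value per siRNA against 0, and tested differences by an F test. P-values were Benjamini-Hochberg adjusted over all probes tested, with a threshold of 0.05, and the number of arrays limits the precision. No background correction was added, since the values were already subtracted. A gene was measured by its brightest tested probe.

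Names came from the platform annotation, with 22117 probes having 1 symbol, 1025 several and 12186 none, and 27 probes with several symbols that would have matched were left unnamed. The genes named were, in each family, the 3 with the highest and the 3 with the lowest mean over the siRNAs, the 3 with the smallest F test p, the 3 with the largest dye term, and genes whose probes differed by over 0.5. Others were chosen after their values were seen. The members and lists were chosen with earlier results of these data known, and the setting that keeps randomised controls and the split by brightness were added after the data were seen. The procedure was tested on simulated data.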

Additional observations from a re-analysis of the deposited data

Results flagged for a closer look

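For 11 of the named genes the response differed between siRNAs by limma's test of the difference itself. For siRNA 3 minus siRNA 2 the log2 differences were 0.34 for SREK1 (adjusted p = 0.0275), 0.58 for SRSF11 (0.0133), 0.59 for SRRM1 (0.0092), 0.39 for SF3B3 (0.0138), 0.36 for PRPF8 (0.0311), 0.70 for HNRNPR (0.00682) and 0.53 for HNRNPU (0.00682). These are values of the brightest probe, and for the same difference the other SREK1 probes gave -1.02 (0.0109) and -1.30 (0.00234) and the second HNRNPR probe -0.29 (0.0301), opposite in sign. The second SRRM1, SF3B3 and PRPF8 probes gave -0.15, 0.39 and -0.00, none past the threshold. The differences were -0.51 for HNRNPA2B1 (adjusted p = 0.015) and -0.31 for HNRNPAB (0.0336). SNRNP25 had 0.36 for siRNA 3 minus siRNA 1 (adjusted p = 0.0169), and SNRNP200 had 0.80 for siRNA 2 minus siRNA 1 (adjusted p = 0.00392), where its dim second probe had -0.19 (adjusted p = 0.658). The F test over the siRNAs called none of these genes with median centring or on the Cy5 arrays alone. Groups of 3 arrays were too small to look for single arrays that stand apart.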

How the results depend on the processing

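Under 20 alternative settings, 5 of the 52 calls of named genes with an siRNA held throughout (HNRNPA2B1 with siRNA 2, HNRNPAB with siRNA 3, SNRNP25 with siRNA 1, PRPF38B with siRNA 3 and PRPF6 with siRNA 2). Median centring gave 14, 9 and 13 members called with siRNA 1, 2 and 3, 0 by the F test and 14 with a dye term. The authors' ratios gave 17 with siRNA 3 and 3 by the F test. Without the dye term there were 9, 9 and 13, and 3 by the F test. The Cy5 arrays alone gave 13 with siRNA 1 and 0 by the F test. Over all tested probes, calls with siRNA 1, 2 and 3 were 6478, 5723 and 5658 in the main setting. Median centring gave 5020, 2215 and 3334, and the authors' ratios 4577 with siRNA 3. Without the dye term the calls were 3395, 2576 and 2663, and the Cy5 arrays alone gave 5105 with siRNA 1. Across siRNAs, 1 member passed with normexp, 2 with signal required in both channels, and 2 with low-quality spots left out, where the F test called 28. Over all tested probes, 644, 1592 and 1528 passed across siRNAs in these settings, against 1 in the main setting. Leaving out 1 array gave 6 to 24 members with siRNA 1, 11 to 21 with siRNA 2, 9 to 29 with siRNA 3, 0 across siRNAs, 4 to 16 by the F test and 9 to 24 with a dye term. The count with siRNA 1 was 11, 9 and 6 without its array 1, 2 and 3, that with siRNA 2 was 15 and 11 without its array 1 and 3, and that with siRNA 3 was 10, 9 and 10 without its own arrays. Fewer arrays of the same siRNA remain in these fits. Calls over all tested probes fell too, to 4349, 3728 and 2302 with siRNA 1 without its array 1, 2 and 3. With siRNA 2 they fell to 3486 and 3557 without its array 1 and 3. With siRNA 3 they fell to 2818, 3029 and 2257 without its array 1, 2 and 3. Signs turned for SNRPB with siRNA 1 on the Cy5 arrays (0.012) and, averaging probes, for SREK1 with siRNA 3 (-0.12), SRRM1 with siRNA 1 (0.023) and SRRM1 with siRNA 2 (0.12). The cause was not tested. Keeping the randomised controls left the counts as they were. Dropping the filter on dim probes left the same 28139 probes, since each still needed a ratio in both orientations. That setting, counted among the 20, therefore repeated the main fit and could not change a call. No paired analysis was possible because the array numbers were given in accession order and pair no samples.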
